A study of Homo sapiens with 18 samples.

Results

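What ionizing radiation changed in IMR90 cells when MDM2 was inhibited on both sides of the comparison was read from 6 of the 18 libraries of the series, the 3 irradiated cultures given RG7388 (IR_RG7388) and the 3 proliferating cultures given RG7388 (Prolif_RG7388), chosen by their group names and not by any measured value. IMR90 is a line of primary human lung fibroblasts, and every culture was wild type and was grown in low oxygen. RG7388 (idasanutlin) binds MDM2 and keeps it from p53. The irradiated cells, used by the study as senescent cells, had RG7388 in the medium from day 4 to collection at day 11 after irradiation, while the labels give no separate time for the proliferating cells. The remaining 12 libraries are the same states given the second MDM2 inhibitor HDM201 (siremadlin) or the solvent DMSO, and IR_DMSO against Prolif_DMSO served as the comparison without an inhibitor.

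MDM2 is the ligase that marks p53 for degradation, and it is itself a p53 target, so that p53 normally limits its own level. Irradiated fibroblasts hold persistent DNA damage signals, keep p21 high, stop dividing, lose lamin B1 and secrete cytokines and proteases known together as the senescence-associated secretory phenotype (SASP). The cytokine arm of the SASP is driven by NF-kB, and interferon-stimulated genes are induced when DNA in the cytoplasm is sensed by cGAS and STING.

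Poly(A) RNA was counted per gene. The IR_RG7388 libraries held 63978866, 31780450 and 38223607 counts and the Prolif_RG7388 libraries 24279641, 25225093 and 34022779, within a range of 21609198 to 66647700 over the series. Levels are CPM, that is counts relative to the size of each library after TMM scaling (trimmed mean of M values), with ± the SD over 3 libraries. Changes are log2 fold changes with ± an approximate standard error, and p-values come from edgeR, adjusted over the 18151 genes tested. This standard error is the size of the change divided by the square root of the F statistic of the edgeR test. The labels do not say whether replicates were separate irradiations, so p-values here describe spread among the samples at hand and that spread may be technical only. Across genes, log2 CPM correlated at 0.990 or more within IR_RG7388, at 0.986 or more within Prolif_RG7388 and at no more than 0.957 between the groups.

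One of the 6 libraries stood apart from its group in the number of genes that read low. In Prolif_RG7388 replicate 2, 610 of 12906 genes were at least 1.5-fold lower than in both other libraries of its group, against 67 and 40 genes in replicates 1 and 3 and 43 to 68 of 13047 genes in the IR_RG7388 libraries. The longest annotated transcript of these 610 genes had a median of 6645 bases, against 3854 bases over the genes compared. Of the 610, 209 were called higher and 61 lower in IR_RG7388 with this library (median log2 fold change 0.46), and 136 higher and 81 lower without it (median 0.25). Values of MKI67, ATM and GBP1 are given with and without it. A trend with transcript length was not particular to this library. The median log2 ratio to the mean of the other libraries of its group was 0.11 in the lowest and -0.08 in the highest quartile of length. In IR_RG7388 replicate 3 these ratios were 0.10 and -0.10, and values of these genes without that library are not given. Outside these 6 libraries, IR_DMSO replicate 1 had 0.668% of its counts on mitochondrial genes, against 2.38% to 3.47% in the other libraries.

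Markers of the cell type were checked first. Of 15 mesenchymal markers 10 fell and 1 rose, beside 22.8% lower and 21.3% higher over all genes. Their summed level was 23667 to 25653 CPM in IR_RG7388, against 49285 to 54868 CPM in Prolif_RG7388. COL1A1 alone averaged 8956 CPM in IR_RG7388 and 26288 CPM in Prolif_RG7388, so the fall of the sum largely follows this gene. The falls included CDH2 (N-cadherin) and the fibroblast transcription factor PRRX1. Leukocyte markers summed to 2.27 to 2.88 CPM in IR_RG7388 and 1.98 to 2.52 CPM in Prolif_RG7388, and only 4 of the 12 listed were high enough to test, the pan-leukocyte marker PTPRC not among them. Epithelial markers summed to 376 to 439 CPM in IR_RG7388, against 354 to 380 CPM in Prolif_RG7388, and endothelial markers to 125 to 131 CPM, against 93.5 to 97.3 CPM. The part of other cell types in the results was not tested. In bulk RNA a change in the number of cells of a kind and a change in RNA per cell cannot be told apart.

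With RG7388 present in both states, 7993 of 18151 genes (44.0%) were called different after irradiation, 3858 higher (21.3%) and 4135 lower (22.8%), with a median over all genes of 0.03. A change of at least 2-fold was called for 1493 higher and 1559 lower genes. The libraries of both groups did not overlap for 11086 genes (61.1%), so a count of members without overlap says little by itself. Without Prolif_RG7388 replicate 2 there were 3152 higher and 3715 lower calls, within the range of the other leave-outs. Scaling by library totals alone turned the split to 5236 higher and 3233 lower, so that 61.8% of calls were higher against 48.3% with the main scaling, and moved the median of all genes by 0.16.

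**Figure D1:**
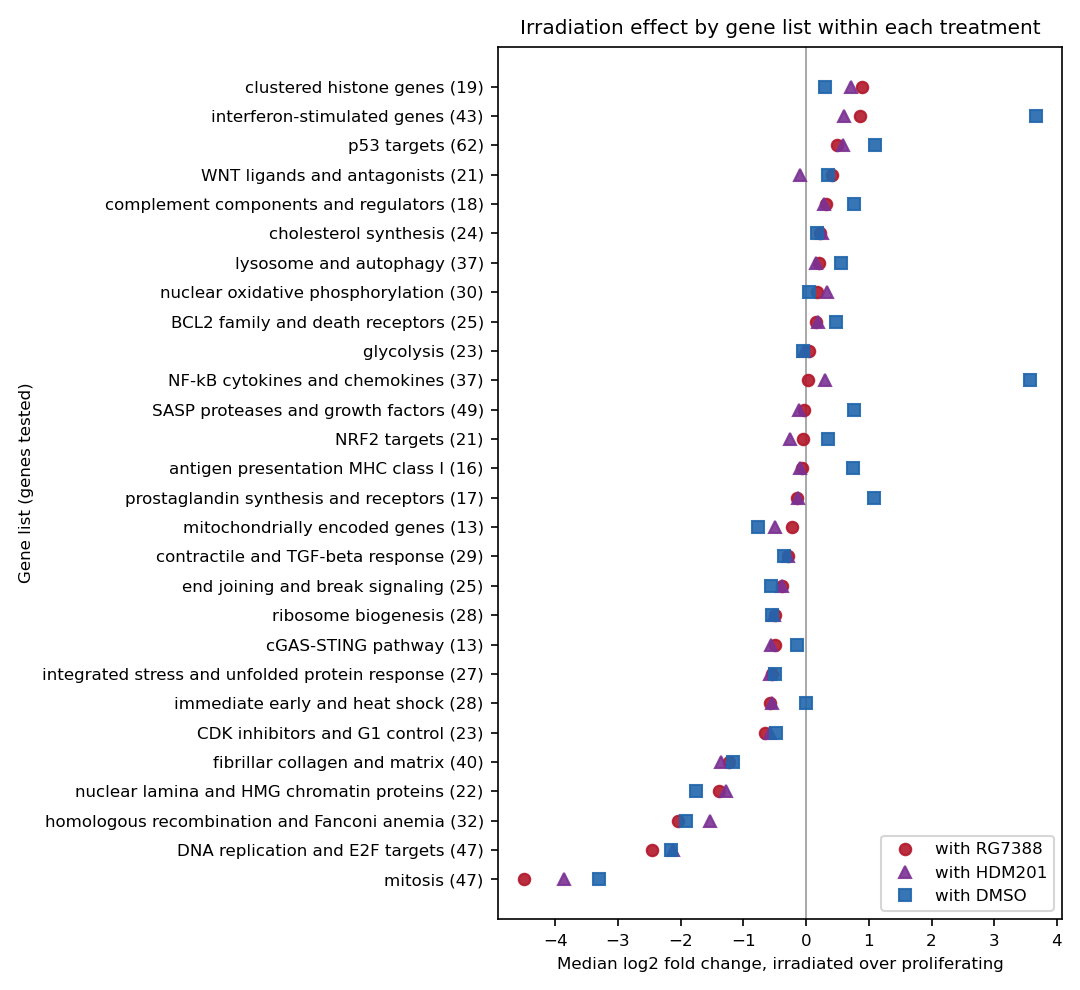
Median log2 fold change of irradiated over proliferating cells (x axis) for each gene list (y axis, number of genes tested in brackets), with RG7388 (circles), HDM201 (triangles) and DMSO (squares). Mitosis genes lie lowest with RG7388 at -4.50, and the NF-kB and interferon lists lie at 0.02 and 0.86 with RG7388, against 3.57 and 3.67 with DMSO.

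Genes of cell division made up most of the largest falls, with the WNT ligand gene WNT7B (-5.87) between them. All 47 mitosis genes tested fell in IR_RG7388 and none rose, with a median of -4.50, beside 22.8% of all genes called lower. They ranged from -6.11 for CENPA, the histone variant that marks centromeres, to -0.75 for BUB3, a spindle checkpoint protein, and 45 of them fell at least 4-fold.

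CENPA had 0.567, 0.309 and 0.415 CPM in IR_RG7388, against 29.2, 33.1 and 32.5 CPM in Prolif_RG7388, a fall of 69.1-fold (-6.11 ± 0.19, adjusted p = 2.32e-17). PLK1 (chromosome 16, 23677656 to 23690367, hg38), the polo-like kinase that drives entry into mitosis, had 4.35, 4.05 and 3.99 CPM in IR_RG7388 and 194, 210 and 192 CPM in Prolif_RG7388 (-5.58 ± 0.17, adjusted p = 3.44e-17). CDC20, the activator of the anaphase-promoting complex, had 3.52, 3.03 and 3.47 CPM in IR_RG7388, against 180, 193 and 184 CPM in Prolif_RG7388 (-5.79 ± 0.17, adjusted p = 1.57e-17). In each of these 3 genes the irradiated libraries lay far below the proliferating ones. The largest falls were picked among genes without overlap between the groups, so the lack of overlap adds no support. The kinesin KIF20A (-5.87 ± 0.19), the survivin gene BIRC5 (-5.24 ± 0.14), the kinase AURKB (-5.40 ± 0.15) and the spindle factor TPX2 (-4.50 ± 0.12) fell by similar amounts. MKI67, the proliferation antigen Ki-67, had 10.9, 9.56 and 8.12 CPM in IR_RG7388, against 463, 210 and 421 CPM in Prolif_RG7388, where the lowest value was that of replicate 2 (-5.25 ± 0.42, and -5.53 without that library).

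Promoter windows of some of the genes that fell in IR_RG7388 are shown so that the motifs can be seen in place. Windows run from 250 bases before to 50 bases after the start site and are taken from RefSeq (GRCh38.p14). Capitals mark the cell cycle homology element (CHR, letters TTTGAA or TTCGAA), through which the DREAM complex represses mitotic genes, and the E2F core (TTTCCCGC or TTTGGCGC), both searched on both strands. The windows are CENPA at chr2:26785806-26786105 (plus strand), CDC20 at chr1:43358731-43359030 (plus strand), PLK1 at chr16:23678639-23678938 (plus strand), MKI67 at chr10:128126374-128126673 (minus strand) and MCM7, a subunit of the replicative helicase, at chr7:100101348-100101647 (minus strand), each written 5′ to 3′ in the direction of its gene.
CENPA: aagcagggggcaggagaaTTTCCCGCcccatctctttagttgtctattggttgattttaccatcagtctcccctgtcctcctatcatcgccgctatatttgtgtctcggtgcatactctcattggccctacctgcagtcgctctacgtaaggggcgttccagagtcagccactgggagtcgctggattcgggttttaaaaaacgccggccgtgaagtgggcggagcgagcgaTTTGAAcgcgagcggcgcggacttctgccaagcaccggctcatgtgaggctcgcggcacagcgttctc
CDC20: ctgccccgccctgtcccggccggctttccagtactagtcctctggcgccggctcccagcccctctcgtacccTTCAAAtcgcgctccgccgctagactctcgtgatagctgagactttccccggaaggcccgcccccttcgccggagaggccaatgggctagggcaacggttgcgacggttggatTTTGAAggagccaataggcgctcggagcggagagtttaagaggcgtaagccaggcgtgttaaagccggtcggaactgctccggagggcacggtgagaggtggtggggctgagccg
PLK1: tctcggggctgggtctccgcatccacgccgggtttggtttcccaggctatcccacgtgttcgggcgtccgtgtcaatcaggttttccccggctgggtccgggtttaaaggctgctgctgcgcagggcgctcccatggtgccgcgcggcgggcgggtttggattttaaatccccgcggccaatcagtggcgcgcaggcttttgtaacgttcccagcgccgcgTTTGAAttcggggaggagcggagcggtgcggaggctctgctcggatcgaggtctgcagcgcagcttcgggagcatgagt
MKI67: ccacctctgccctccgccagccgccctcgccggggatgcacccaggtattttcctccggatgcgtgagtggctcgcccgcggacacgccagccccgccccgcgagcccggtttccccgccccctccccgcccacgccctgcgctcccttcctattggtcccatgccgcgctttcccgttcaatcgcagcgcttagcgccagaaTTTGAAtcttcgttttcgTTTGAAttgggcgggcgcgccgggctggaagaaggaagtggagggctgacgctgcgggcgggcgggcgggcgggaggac
MCM7: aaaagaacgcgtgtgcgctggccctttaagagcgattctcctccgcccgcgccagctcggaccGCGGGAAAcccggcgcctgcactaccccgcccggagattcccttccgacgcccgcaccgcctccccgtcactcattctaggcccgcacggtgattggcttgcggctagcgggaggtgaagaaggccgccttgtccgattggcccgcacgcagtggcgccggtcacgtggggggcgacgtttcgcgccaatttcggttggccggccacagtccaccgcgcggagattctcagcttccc

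Of the 47 mitosis genes 40 had a window, and 30 of the 40 (75.0%) held a CHR match, against 16.4% of 35116 promoter windows and 2 of 40 windows (5.00%) of the DNA replication list. The E2F core was in 18 of 40 replication windows (45.0%), against 2.27% of all windows and 2 of 40 mitosis windows. In these sequences CENPA holds 1 CHR match and 1 E2F match, CDC20 has a CHR match on each strand, and MCM7 holds an E2F match on the opposite strand. Mitosis genes with a CHR match had a median change of -4.48 in IR_RG7388, and the 10 without one had -4.82. Replication genes with the E2F core had a median of -2.61, and the 22 without it had -2.47. Medians with and without a match thus lay close together in both lists. A match only describes the letters and is not a site.

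**Figure D2:**
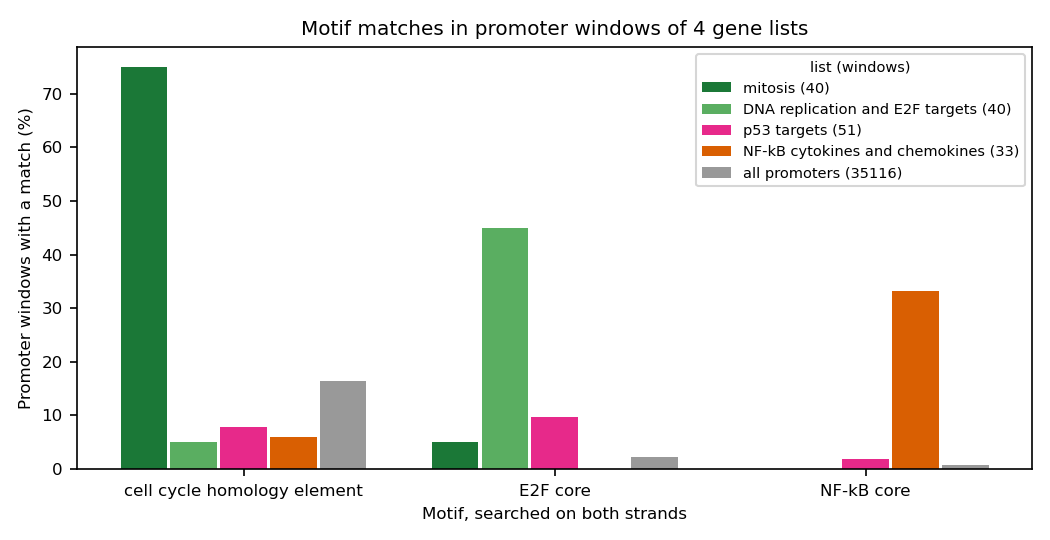
Share of promoter windows with a motif match in percent (y axis) for 3 motifs (x axis) in 4 gene lists and in all promoter windows (bars, number of windows in brackets). The cell cycle homology element was in 75.0% of mitosis windows, the E2F core in 45.0% of replication windows and the NF-kB core in 33.3% of windows of the NF-kB list.

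Replication genes and other targets of E2F had a smaller median fall. Of 47 tested, 46 fell and none rose (median -2.46), from TK1, thymidine kinase (-4.22 ± 0.14), to CCNE1, cyclin E1, which was not called (0.14). RRM2, a subunit of ribonucleotide reductase, had 21.6, 18.6 and 18.4 CPM in IR_RG7388, against 338, 375 and 346 CPM in Prolif_RG7388 (-4.17 ± 0.15, adjusted p = 1.53e-16), and MCM7 had 26.5, 27.5 and 30.0 CPM, against 232, 256 and 211 CPM (-3.06 ± 0.12, adjusted p = 7.52e-16). The groups overlapped in neither gene. Of 32 genes of homologous recombination and the Fanconi anemia pathway, 27 fell and 2 rose (median -2.04, and -1.13 in limma on FPKM), beside 22.8% lower over all genes. Medians in limma, here and below, are of changes in log2(FPKM + 1) over members with a mean FPKM of at least 1 in a group. They differ from the main medians in scale and can differ in members. RAD54L, a motor protein of strand exchange, fell most (-4.58 ± 0.20), followed by FANCD2, the monoubiquitinated core of the Fanconi pathway (-4.09 ± 0.14). ATM, the kinase activated by double-strand breaks, went the other way, with 40.9, 41.0 and 32.8 CPM in IR_RG7388 and 16.8, 12.3 and 17.2 CPM in Prolif_RG7388 (1.31 ± 0.26, adjusted p = 0.000683, and 1.17 without Prolif_RG7388 replicate 2).

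Genes of end joining and break signaling were divided. Of 25 tested, 11 fell and 3 rose (median -0.38), beside 22.8% lower and 21.3% higher over all genes. The median was -0.22 under library totals and -0.16 in limma on FPKM. H2AFX, the histone phosphorylated at breaks, fell (-2.98 ± 0.14), and so did the ends-binding kinase PRKDC (-1.15 ± 0.11). The ligase LIG4 (0.95 ± 0.16, adjusted p = 5.34e-05) and its partner XRCC4 rose. XRCC4 averaged 21.1 ± 0.974 CPM in IR_RG7388 and 9.62 ± 1.59 CPM in Prolif_RG7388 (1.13 ± 0.16, adjusted p = 2.63e-06), without overlap. With DMSO the groups overlapped, at 11.8, 10.3 and 10.8 CPM in irradiated and 13.3, 10.9 and 11.9 CPM in proliferating cells (-0.14, adjusted p = 0.469).

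On the nuclear lamina and high mobility group list 17 of 22 genes were lower and 1 was higher (median -1.39), beside 22.8% lower and 21.3% higher over all genes. LMNB1, lamin B1, whose loss is a textbook mark of senescence, had 2.11, 3.03 and 2.05 CPM in IR_RG7388, against 97.9, 107 and 109 CPM in Prolif_RG7388 (-5.47 ± 0.17, adjusted p = 2.09e-17). HMGB2, a chromatin protein lost in senescent cells, fell (-4.32 ± 0.14), and EZH2, the methyltransferase of Polycomb, fell as well (-3.32 ± 0.12). The gene that rose was HMGA2, an architectural chromatin protein, at 808, 785 and 739 CPM in IR_RG7388 and 536, 430 and 558 CPM in Prolif_RG7388 (0.61 ± 0.14, adjusted p = 0.00124). Polyadenylated transcripts of clustered histone genes were higher for 8 of 19 and lower for 2 (median 0.90). Among them HIST1H2AC had 133, 136 and 135 CPM in IR_RG7388, against 10.9, 11.7 and 11.9 CPM in Prolif_RG7388 (3.55 ± 0.12, adjusted p = 5.61e-17). Histone genes are near-identical copies, so their reads may have been split or lost in counting.

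Cell cycle inhibitors did not move together. CDKN1A, which encodes the CDK inhibitor p21 (chromosome 6, 36676460 to 36687337, hg38), had 2077, 2089 and 2165 CPM in IR_RG7388 and 733, 797 and 715 CPM in Prolif_RG7388, without overlap, a rise of 2.82-fold (1.50 ± 0.11, adjusted p = 1.01e-10). CDKN2A encodes p16 and ARF, whose reads cannot be told apart in gene counts, and had 7.89, 6.68 and 8.32 CPM in IR_RG7388 and 9.47, 10.7 and 8.61 CPM in Prolif_RG7388 (-0.32 ± 0.15, adjusted p = 0.0846). Its neighbor CDKN2B, which encodes p15, was lower (-0.51 ± 0.15, adjusted p = 0.00734), a call lost under scaling by library totals. CCND2, a D-type cyclin, had 276, 271 and 257 CPM in IR_RG7388, against 12.1, 13.4 and 13.8 CPM in Prolif_RG7388 (4.35 ± 0.15, adjusted p = 1.41e-16), and CCND1 rose 2.96-fold (1.57 ± 0.11). MYBL2, a transcription factor of dividing cells, fell (-4.81 ± 0.14). In all, 14 of 23 genes on this list fell and 5 rose, beside 22.8% lower and 21.3% higher over all genes. GLB1, the source of senescence-associated beta-galactosidase activity, had 82.3, 82.7 and 81.7 CPM in IR_RG7388 and 84.1, 91.4 and 81.2 CPM in Prolif_RG7388 and was not called (-0.06 ± 0.12, adjusted p = 0.727).

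More p53 targets rose than fell. Of 62 tested, 33 rose and 7 fell in IR_RG7388 (median 0.49), beside 21.3% of all genes called higher. MDM2, the inhibitor's own target, had 172, 164 and 154 CPM in IR_RG7388, against 73.8, 53.2 and 65.1 CPM in Prolif_RG7388 (1.35 ± 0.18, adjusted p = 4.17e-06). GDF15, a stress cytokine, had 106, 105 and 107 CPM in IR_RG7388 and 33.5, 35.0 and 31.6 CPM in Prolif_RG7388 (1.67 ± 0.13, adjusted p = 4.53e-10). In both genes every irradiated library lay above every proliferating one. PTCHD4, a patched-related protein, rose most, at 20.9, 19.2 and 18.3 CPM in IR_RG7388 and 1.17, 1.01 and 1.18 CPM in Prolif_RG7388 (4.11 ± 0.21), ahead of the decoy death receptor TNFRSF10C (2.76 ± 0.16) and the antiviral TRIM22 (1.79 ± 0.10). The 7 targets that fell included PRDM1, a transcriptional repressor (-1.14 ± 0.12), and SESN2, a stress-induced regulator of mTORC1 (-0.66 ± 0.12).

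Without an inhibitor CDKN1A and GDF15 rose more after irradiation. CDKN1A averaged 1818 CPM in IR_DMSO and 231 CPM in Prolif_DMSO, so that its irradiation effect was 1.48 ± 0.15 log2 units smaller with RG7388 (-1.48, adjusted p = 4.26e-07), and for GDF15 the difference was -3.25 ± 0.19 (adjusted p = 5.38e-11). GDF15 averaged 353 CPM in IR_DMSO and 11.8 CPM in Prolif_DMSO, so that its level with RG7388 was lower in irradiated cells and higher in proliferating cells. For 31 of the 62 targets the effect was smaller (more negative) with RG7388 and for 2 it was larger, beside 5.27% and 2.20% of all genes. Over all 62 targets the level with RG7388 relative to DMSO had a median log2 ratio of -0.08 in irradiated cells and 0.38 in proliferating cells. Over the 33 targets whose effect differed, the medians were -0.44 and 0.59. The difference for MDM2 was at the threshold (-0.82, adjusted p = 0.0499) and was lost when any of 10 single libraries was left out, with adjusted p up to 0.123.

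**Figure D3:**
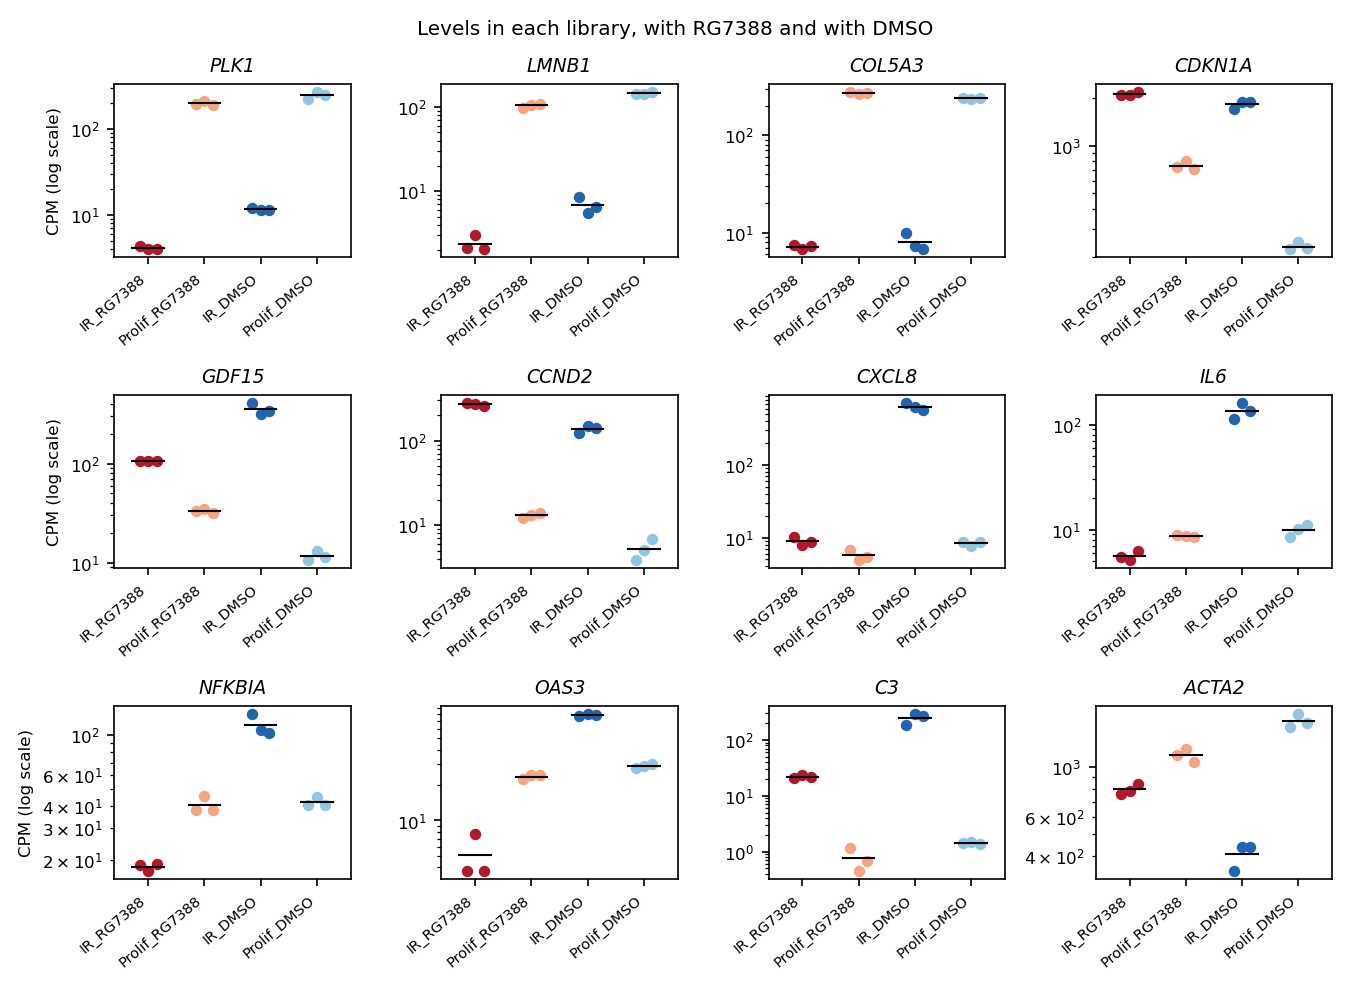
CPM of 12 genes in each library (points, log scale on the y axis) with the group mean (line), from left to right in IR_RG7388, Prolif_RG7388, IR_DMSO and Prolif_DMSO. PLK1, LMNB1 and COL5A3 were low in both irradiated groups, CDKN1A was high in both, and CXCL8, IL6 and NFKBIA were high only in IR_DMSO.

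Cytokine genes driven by NF-kB did not rise as a group. Of 37 tested, 8 rose, 8 fell and 21 were not called (median 0.02, and 0.18 under library totals), close to the 21.3% higher and 22.8% lower over all genes. CXCL8 (chromosome 4, 73740519 to 73743716, hg38), the neutrophil chemokine, had 10.2, 8.01 and 8.61 CPM in IR_RG7388, against 6.72, 4.85 and 5.46 CPM in Prolif_RG7388 (0.66 ± 0.15, adjusted p = 0.001). The interleukin IL6 had 5.53, 5.11 and 6.30 CPM in IR_RG7388 and 8.93, 8.78 and 8.58 CPM in Prolif_RG7388 (-0.63 ± 0.15, adjusted p = 0.00181). IL1B had 1.06, 0.371 and 0.700 CPM in IR_RG7388, against 1.85, 1.98 and 1.44 CPM in Prolif_RG7388 (-1.19 ± 0.27, adjusted p = 0.000955). Thus CXCL8 was slightly higher after irradiation and both interleukins were lower, in each case without overlap. IL1A, the upstream cytokine of the SASP, was below 1 CPM in all 6 libraries (-1.44 ± 0.51, adjusted p = 0.0295), a call lost when any of 4 single libraries was left out.

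Among regulators of NF-kB on the same list, NFKBIA and TNFAIP3 fell. NFKBIA, which holds NF-kB in the cytoplasm, had 18.6, 17.2 and 18.9 CPM in IR_RG7388, against 37.8, 45.6 and 37.8 CPM in Prolif_RG7388 (-1.15 ± 0.12, adjusted p = 4.28e-08). TNFAIP3, the deubiquitinase A20, averaged 6.49 ± 0.686 CPM in IR_RG7388 and 12.7 ± 0.770 CPM in Prolif_RG7388 (-0.96 ± 0.13, adjusted p = 1.58e-06). TNFAIP6, a hyaluronan-binding protein, fell most on the list, at 0.322, 0.0928 and 0.285 CPM in IR_RG7388 and 4.82, 6.39 and 5.49 CPM in Prolif_RG7388 (-4.45 ± 0.29, adjusted p = 1.14e-11). The 8 genes that rose included C3, the central complement protein, with 21.1, 23.3 and 21.6 CPM in IR_RG7388, against 1.17, 0.441 and 0.670 CPM in Prolif_RG7388 (4.87 ± 0.22, adjusted p = 3.03e-14), and SOD2, the mitochondrial superoxide dismutase (1.05 ± 0.11).

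Windows of a chemokine and of an inhibitor with matches to the NF-kB core (GGAATTTCC or GGACTTTCC, both strands, in capitals) are CXCL8 at chr4:73740319-73740618 (plus strand) and NFKBIA at chr14:35404700-35404999 (minus strand).
CXCL8: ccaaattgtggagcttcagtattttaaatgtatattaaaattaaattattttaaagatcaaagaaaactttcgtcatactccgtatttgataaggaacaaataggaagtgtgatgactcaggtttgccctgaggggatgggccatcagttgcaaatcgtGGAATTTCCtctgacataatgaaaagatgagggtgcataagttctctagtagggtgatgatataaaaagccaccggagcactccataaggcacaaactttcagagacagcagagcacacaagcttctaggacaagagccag
NFKBIA: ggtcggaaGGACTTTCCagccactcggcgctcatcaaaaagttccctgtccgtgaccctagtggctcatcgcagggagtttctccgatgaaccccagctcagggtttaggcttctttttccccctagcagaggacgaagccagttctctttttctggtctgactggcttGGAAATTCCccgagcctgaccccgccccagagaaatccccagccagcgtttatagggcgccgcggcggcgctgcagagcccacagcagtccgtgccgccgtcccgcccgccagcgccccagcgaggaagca

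The NF-kB core was in 11 of 33 windows of the list (33.3%), against 0.829% of all windows. The 11 genes with a match had a median change of 0.14 with RG7388 and 6.24 with DMSO, and the 18 tested genes without one had 0.01 with RG7388 and 3.68 with DMSO.

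Without an inhibitor, 34 of the 37 rose after irradiation and none fell (median 3.57), beside 26.3% higher and 25.3% lower over all genes. CXCL8 averaged 635 CPM in IR_DMSO and 8.34 CPM in Prolif_DMSO, and the difference between the irradiation effects was -5.58 ± 0.21 (adjusted p = 4.87e-14). IL6 averaged 135 CPM in IR_DMSO and 9.91 CPM in Prolif_DMSO, and IL1B 89.0 and 2.10 CPM, which gave differences of -4.41 ± 0.21 and -6.61 ± 0.34. For 31 of the 37 genes the effect was lower with RG7388 and for none was it higher, beside 5.27% and 2.20% of all genes. C3 was among them (-2.58 ± 0.33), and it averaged 249 CPM in IR_DMSO and 1.43 CPM in Prolif_DMSO.

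Of 43 interferon-stimulated genes 15 rose, 4 fell and 24 were not called (median 0.86), beside 21.3% higher and 22.8% lower over all genes. The median was 0.23 in limma on FPKM. IR_RG7388 libraries differed on this list, with summed levels of 777 to 1004 CPM, against 616 to 646 CPM in Prolif_RG7388. The SD of their mean log2 CPM was 0.37, against 0.08 in Prolif_RG7388. IFIT2, an antiviral protein that binds viral RNA, had 3.08, 3.65 and 4.07 CPM in IR_RG7388, against 0.766, 0.441 and 1.24 CPM in Prolif_RG7388 (2.07 ± 0.27, adjusted p = 1.94e-06), and the RNA sensor DDX58 (RIG-I) rose as well (1.10 ± 0.18). The highest log2 fold change of the list, taken without regard to calls, was 3.36 for the 2-5A synthetase OAS1. Its relative OAS3 fell, with 3.69, 7.70 and 3.73 CPM in IR_RG7388 and 22.4, 24.3 and 24.2 CPM in Prolif_RG7388 (-2.25 ± 0.20, adjusted p = 1.09e-08). The guanylate-binding protein GBP1 was lower too (-0.82 ± 0.14, and -0.97 without Prolif_RG7388 replicate 2). With DMSO 42 of the 43 rose (median 3.67), and the effect was lower with RG7388 for 38 and higher for none. Of all genes 26.3% rose with DMSO, and 5.27% had a lower and 2.20% a higher effect with RG7388. OAS3 averaged 78.8 CPM in IR_DMSO and 29.1 CPM in Prolif_DMSO, so that it rose with DMSO and fell with RG7388 (difference -3.69 ± 0.27, adjusted p = 1.2e-08). Of 13 genes of the cGAS-STING pathway 8 fell and 1 rose with RG7388 (median -0.50, and -0.28 in limma on FPKM), including CGAS itself (-1.54 ± 0.17) and TMEM173, which encodes STING (-0.72 ± 0.14), and for 2 of them the effect differed from that with DMSO.

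Among 16 MHC class I genes 7 were lower and 1 was higher (median -0.07, above 0 under library totals), beside 22.8% lower and 21.3% higher over all genes. HLA-B had 194, 200 and 200 CPM in IR_RG7388, against 309, 329 and 290 CPM in Prolif_RG7388 (-0.64 ± 0.12, adjusted p = 0.000142), and NLRC5, the transactivator of class I genes, fell (-1.03 ± 0.13). HLA-E, a ligand of natural killer cell receptors, was the gene that rose (0.77 ± 0.10). HLA genes share sequence, so reads may have been split among them. With DMSO 13 of the 16 rose and 1 fell, beside 26.3% and 25.3% of all genes. For 11 the effect was lower with RG7388, beside 5.27% of all genes.

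**Figure D4:**
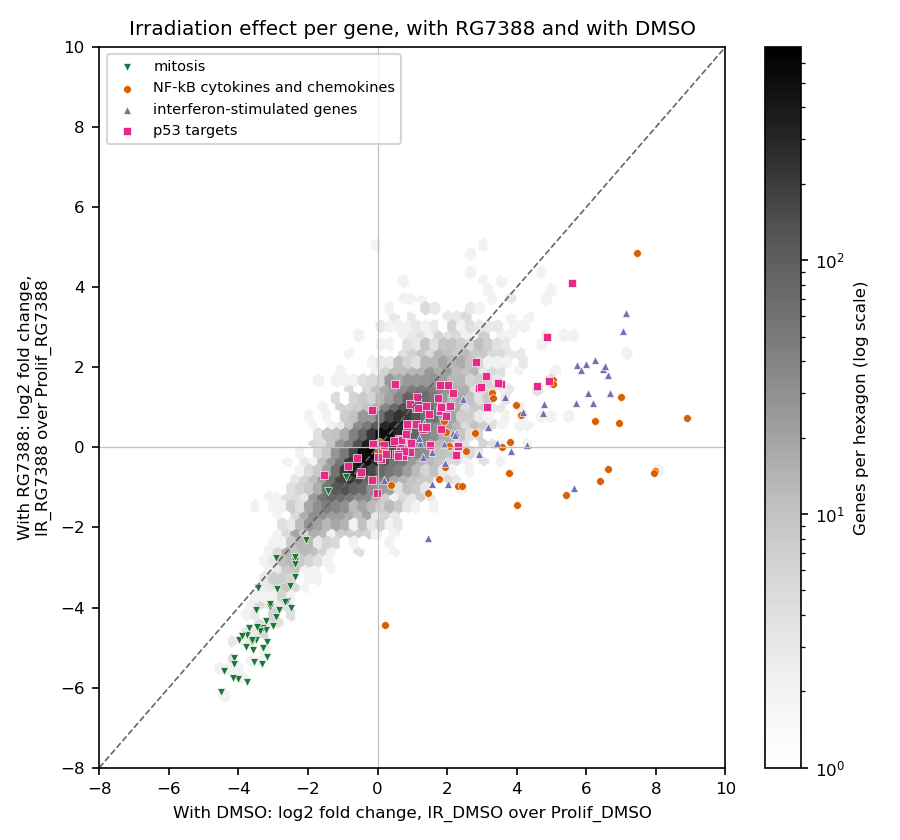
Log2 fold change of irradiated over proliferating cells with RG7388 (y axis) against that with DMSO (x axis), for all 18151 genes (hexagons shaded by the number of genes on a log scale) and for 4 gene lists (colored points), with the line of equal effects dashed. Mitosis genes lie mostly below the line at the lower left, and NF-kB and interferon-stimulated genes lie at the right near 0 on the y axis.

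Proteases and growth factors of the SASP were split evenly, 18 rising and 18 falling of 49 (median -0.04, above 0 under library totals), beside 21.3% higher and 22.8% lower over all genes. WNT16, a ligand secreted after DNA damage, had 57.2, 55.9 and 55.3 CPM in IR_RG7388, against 7.39, 7.59 and 7.34 CPM in Prolif_RG7388 (2.92 ± 0.12, adjusted p = 2.99e-15). The angiogenic ligand ANGPT1 (2.32 ± 0.18) and the lipase inhibitor ANGPTL4 (1.52 ± 0.13) also rose. The stromelysin MMP10 had 0.674, 0.650 and 0.519 CPM in IR_RG7388 and 4.19, 6.04 and 4.85 CPM in Prolif_RG7388 (-3.01 ± 0.22, adjusted p = 1.41e-10). For 24 of the 49 the effect was lower with RG7388 than with DMSO and for 1 it was higher, beside 5.27% and 2.20% of all genes. WNT16 and MMP10 were among the 24 (-1.65 ± 0.17 for WNT16). PTGES, which makes prostaglandin E2 and belongs to the prostaglandin list of 17 genes, rose only to 2.16 ± 0.302 CPM in IR_RG7388, against 1.10 ± 0.0861 CPM in Prolif_RG7388 (0.96 ± 0.22), while with DMSO it averaged 27.2 CPM in irradiated and 0.764 CPM in proliferating cells (difference -4.15, adjusted p = 5.73e-09).

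Matrix genes fell in both settings. Of all genes, 22.8% were called lower with RG7388 and 25.3% with DMSO. On the list of 40 genes of collagen and matrix, 34 were lower and 3 higher with RG7388 (median -1.22), 25 of the falls being at least 2-fold, and 34 fell and 1 rose with DMSO (median -1.17). COL5A3, a chain of type V collagen, had 7.46, 6.74 and 7.34 CPM in IR_RG7388, against 275, 265 and 269 CPM in Prolif_RG7388 (-5.23 ± 0.19, adjusted p = 4.06e-15). COL1A1, the main chain of type I collagen, had 9622, 9071 and 8174 CPM in IR_RG7388 and 26774, 27860 and 24229 CPM in Prolif_RG7388 (-1.55 ± 0.17, adjusted p = 2.23e-07). In limma on log2(FPKM + 1) its change was 2.40 and was not called (adjusted p = 0.647). Empty FPKM values were read as 0 there, and whether this gave the turned sign was not tested. Tenascin C, TNC, fell 8.14-fold (-3.02 ± 0.12), and the crosslinking enzyme LOXL4 was among the 3 that rose (1.10 ± 0.12). The difference between the effects with RG7388 and with DMSO was called for 9 of the 40, 6 higher and 3 lower, beside 2.20% and 5.27% of all genes.

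Of 29 genes of contractility and the TGF-beta response, 15 were lower and 7 higher (median -0.28, -0.13 under library totals and -0.07 in limma on FPKM). Shares over all genes were 22.8% lower and 21.3% higher, near the share of higher genes on this list. ACTA2, smooth muscle actin, had 756, 783 and 838 CPM in IR_RG7388, against 1128, 1199 and 1048 CPM in Prolif_RG7388 (-0.51 ± 0.12, adjusted p = 0.00205). With DMSO it averaged 406 CPM in irradiated and 1595 CPM in proliferating cells, a deeper fall, and the difference was 1.47 ± 0.18 (adjusted p = 3.95e-06). MYH11, smooth muscle myosin, rose slightly with RG7388, at 8.72, 11.1 and 10.5 CPM in IR_RG7388 and 7.57, 6.53 and 6.38 CPM in Prolif_RG7388 (0.56 ± 0.15, adjusted p = 0.00335), and fell with DMSO (-1.93). ID1, a target of BMP signals, fell more with RG7388 (-1.88 ± 0.13) than with DMSO (-0.51, adjusted p of the difference = 8.06e-06). Among 21 WNT ligands and antagonists 7 rose and 8 fell, with WNT7B, a ligand, at the lower end (-5.87 ± 0.22) and the antagonist SFRP1 among those that rose (1.04 ± 0.10).

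Metabolic and stress lists had medians nearer to 0 than the mitosis list. Their counts stand beside 21.3% higher and 22.8% lower over all genes. Integrated stress and unfolded protein response genes were lower in 17 of 27 cases and higher in 1 (median -0.55), led by PHGDH, the first enzyme of serine synthesis, with 39.7, 39.3 and 44.3 CPM in IR_RG7388, against 275, 284 and 258 CPM in Prolif_RG7388 (-2.73 ± 0.12, adjusted p = 6.1e-15). Ribosome biogenesis genes fell in 19 of 28 cases and none rose (median -0.50), and immediate early and heat shock genes fell in 16 of 28 and rose in 2 (median -0.57). For lysosome and autophagy, 15 of 37 genes rose and 4 fell (median 0.21, and 0.36 under library totals), with GABARAPL1, an autophagosome protein, at 0.98 ± 0.09. NPC1, the lysosomal cholesterol transporter, fell with RG7388 (-0.72 ± 0.12) and rose with DMSO (1.01). Among 21 NRF2 targets 3 rose and 6 fell, about the 44.0% called over all genes. NQO1, a quinone reductase, had 26.9, 24.6 and 27.9 CPM in IR_RG7388, against 88.6, 99.6 and 92.2 CPM in Prolif_RG7388 (-1.82 ± 0.11, adjusted p = 4.8e-12), and HMOX1, heme oxygenase, fell with RG7388 (-1.44 ± 0.15) and rose with DMSO (0.55). Of 30 nuclear genes of oxidative phosphorylation 8 rose and 2 fell, beside 21.3% higher and 22.8% lower over all genes.

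Survival genes went both ways, 12 of 25 BCL2 family and death receptor genes rising and 7 falling (median 0.16, and 0.32 under library totals), beside 21.3% higher and 22.8% lower over all genes. BCL2, which blocks apoptosis, was lower, at 0.781, 0.866 and 0.415 CPM in IR_RG7388 and 3.83, 4.28 and 3.80 CPM in Prolif_RG7388 (-2.52 ± 0.31, adjusted p = 5.96e-07). TNFRSF10D, a decoy receptor of the ligand TRAIL, rose (0.93 ± 0.10).

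Outside the lists the largest rises included genes near silence in Prolif_RG7388. KCTD4 had 8.50, 8.26 and 8.69 CPM in IR_RG7388, against 0.135, 0.0882 and 0.128 CPM in Prolif_RG7388 (6.13 ± 0.39, adjusted p = 8.62e-12). ADAMTS19, a secreted metalloprotease, had 25.9, 26.5 and 22.4 CPM in IR_RG7388 and 0.856, 0.485 and 0.893 CPM in Prolif_RG7388 (5.04 ± 0.21, adjusted p = 3.04e-15). MYOZ2, a protein of the muscle Z-disc, had 168 counts in all in IR_RG7388 and 0 in Prolif_RG7388, which made it at least 31.3-fold higher when the empty group is set to 3 counts in all. Each of these genes was higher in all 3 irradiated libraries, but the largest rises were picked among genes without overlap, so this adds no support.

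The irradiation effects with RG7388 and with DMSO were then set against each other over all genes. With DMSO 9364 genes (51.6%) were called, 4777 higher (26.3%) and 4587 lower (25.3%). Of these, 2911 genes were called higher and 3310 lower in both settings. The effects themselves differed for 1356 genes (7.47%), 399 with a higher effect with RG7388 (2.20%) and 957 with a lower one (5.27%). At least 2-fold differences were called for 105 higher and 604 lower genes. Under library totals the split of differences was 267 higher and 1502 lower, so that 15.1% were higher against 29.4% with the main scaling, with a shift of -0.13 in the median. Leaving out IR_DMSO replicate 1 together with Prolif_HDM201 replicate 3 gave 2204 genes whose effects differed. Across the 18151 genes the log2 fold changes with RG7388 and with DMSO correlated at 0.73, a description over genes measured in the same cell line that are not independent replicates.

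Directions were opposite for 120 genes, 89 lower with RG7388 and higher with DMSO, and 31 the reverse. In all 120 the difference was called, but picking genes by opposite calls nearly fixes this, so it adds no support. IL6, IL1B, TNFAIP3, NFKBIA, OAS3, NPC1 and HMOX1 belong to the 89. Chosen after their values were seen, IER3, an immediate early survival gene, averaged 54.0 ± 5.32 CPM in IR_RG7388 and 135 ± 4.59 CPM in Prolif_RG7388, against 292 and 132 CPM in irradiated and proliferating cells given DMSO. In the reverse direction WNT5B, a ligand also chosen after its values were seen, averaged 256 ± 12.8 CPM in IR_RG7388 and 165 ± 7.90 CPM in Prolif_RG7388, against 85.2 and 129 CPM with DMSO. Among genes called in 1 setting only, MAP3K7CL had 101, 102 and 106 CPM in IR_RG7388, against 38.3, 38.4 and 36.8 CPM in Prolif_RG7388 (1.44 ± 0.10), while with DMSO its means were 30.4 and 31.2 CPM (difference 1.48, adjusted p = 1.23e-07). The chloride channel ANO1 was not called with RG7388 (0.09 ± 0.11, adjusted p = 0.575) and fell with DMSO (-1.90), and TFPI2, a protease inhibitor, was not called with RG7388 (0.17 ± 0.09, adjusted p = 0.147) and rose with DMSO (3.11), with differences of 1.98 and -2.94.

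Mitosis genes fell in both settings but further with RG7388. The median was -4.50 with RG7388 and -3.31 with DMSO, and the difference was called for 30 of 47 genes, lower with RG7388 in all 30. Of all genes 5.27% had a lower effect with RG7388. PLK1 averaged 4.13 ± 0.191 CPM in IR_RG7388 and 199 ± 9.96 CPM in Prolif_RG7388, and 11.6 and 247 CPM with DMSO (difference -1.18 ± 0.21, adjusted p = 0.000582). BIRC5 averaged 4.47 CPM in IR_RG7388, against 23.3 CPM in IR_DMSO, with a difference of -2.06 (adjusted p = 2.69e-08), and that of KIF20A was -2.13 (adjusted p = 7.23e-07). MKI67 was not called (-1.12, adjusted p = 0.236). The level with RG7388 relative to DMSO had a median log2 ratio of -1.58 over mitosis genes in irradiated cells and -0.40 in proliferating cells, so that both levels were lower and the irradiated one by more. The effects differed for 10 of 47 replication genes and 5 of 32 recombination genes, all lower with RG7388, RRM2 (-1.71) and TK1 (-1.29) among them.

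**Figure D5:**
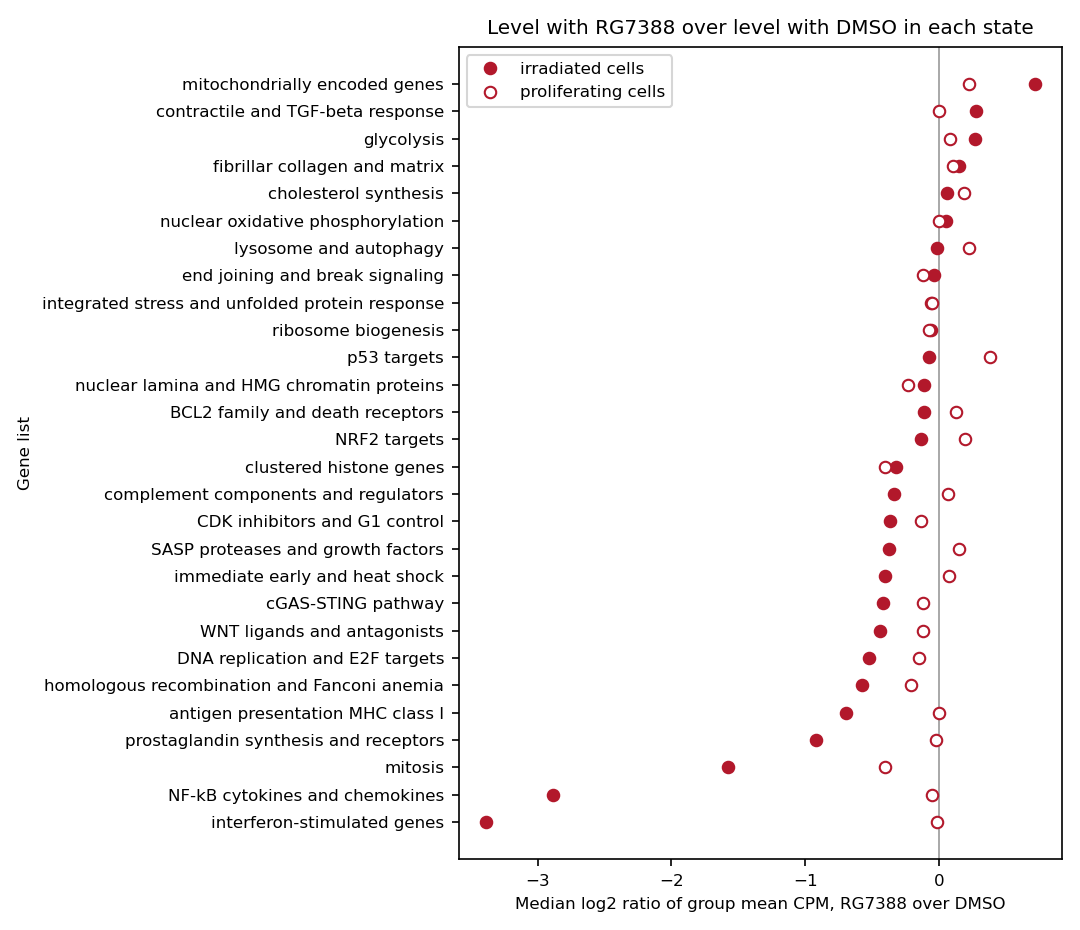
Median log2 ratio of group mean CPM with RG7388 over DMSO (x axis) for each gene list (y axis), in irradiated cells (filled circles) and in proliferating cells (open circles). Interferon, NF-kB and mitosis lists lie at -3.38, -2.89 and -1.58 in irradiated cells and at -0.01, -0.05 and -0.40 in proliferating cells, and p53 targets lie at -0.08 and 0.38.

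The plot of level ratios splits each difference into its irradiated and its proliferating side, as a description without a test. For NF-kB genes and interferon-stimulated genes the ratios in irradiated cells were -2.89 and -3.38, against -0.03 over all genes, and those in proliferating cells were -0.05 and -0.01, against -0.003 over all genes. For p53 targets the sides were -0.08 in irradiated cells and 0.38 in proliferating cells, and -0.44 and 0.59 over the 33 targets whose effect differed. Matrix genes lay near 0 on both sides, at 0.14 and 0.10.

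The same contrast with HDM201 was set beside that with RG7388, since the inhibitors were used at different doses. With HDM201 8436 genes (46.5%) were called, 4124 higher (22.7%) and 4312 lower (23.8%), and 3197 genes were called higher and 3639 lower with both inhibitors. List medians with HDM201 were 0.58 for p53 targets, 0.30 for NF-kB genes, 0.61 for interferon-stimulated genes and -3.86 for mitosis genes. A difference between the irradiation effects with RG7388 and with HDM201 was called by edgeR for 0 genes (0%), with 685 genes at an unadjusted p under 0.05, a smallest adjusted p of 0.201, and 18 genes called by the DESeq2 Wald test. Leaving out Prolif_HDM201 replicate 3 gave 7 calls, and leaving out IR_DMSO replicate 1 with it gave 27. A test that calls no gene does not show that the inhibitors acted alike. Across genes the log2 fold changes with both inhibitors correlated at 0.79.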

How the data were processed

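Poly(A) RNA of 18 IMR90 libraries was sequenced, 3 for each of 6 groups. The authors aligned reads with STAR to hg38, counted them per gene with HTSeq and computed FPKM with Cufflinks, and called differential expression with DESeq2 (tool versions not given in the sources used here). The deposited counts were used for every main result, and the deposited FPKM values, read as 0 where empty, only for alternatives. Of 60668 genes listed, 45 pseudoautosomal copies were left out, and 60295 (99.459%) matched GENCODE 44 by identifier. Gene coordinates come from that annotation and promoter windows from RefSeq, so start sites can differ.

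Groups came from the sample labels. Counts were filtered with filterByExpr, which left 18151 genes, scaled by TMM and fitted over all 18 libraries with edgeR 4.0.16 in R 4.3.3 (glmQLFit with robust estimation, glmQLFTest, 12 residual degrees of freedom). Genes were called at an adjusted p (Benjamini-Hochberg) under 0.05. Gene lists were described by counts and medians without a set test. Level ratios used group means with a pseudocount of 0.1 CPM. The code was tested on simulated data. Alternatives were DESeq2 1.42.0 (Wald test and size factors), limma 3.58.1 on log2(FPKM + 1) or log2(FPKM + 0.1), library totals, other filters and thresholds, a replicate block, fewer libraries and leaving out each replicate. Depth was 21609198 to 66647700 counts, and precision for genes under 1 CPM is limited by counting.

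Named genes began with a fixed panel and the 8 largest rises and falls. These rises and falls were picked among called protein-coding genes with a mean of 1 CPM or more in either group and libraries that do not overlap. Up to 4 members of each list with the smallest p and up to 3 called members against the list median were added. The 6 smallest p in each direction for each difference were taken among protein-coding genes with the same minimum level. The exceptions are said where they occur. Families of similar copies could be left out. Values of some genes are not reported here. The samples, gene lists and tests were chosen with earlier results of these data known.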

Additional observations from a re-analysis of the deposited data

Results flagged for a closer look

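The change after irradiation differed between cells given RG7388 and cells given DMSO for 1356 genes, tested as the difference between both log2 fold changes in the edgeR fit. Values below are that difference, RG7388 minus DMSO, on the log2 scale. A negative value means a smaller rise, a larger fall or a fall in place of a rise with RG7388.

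Among p53 targets and cell cycle inhibitors the difference was -1.48 for CDKN1A, -3.25 for GDF15, -1.48 for PTCHD4, -1.33 for TRIM22, -2.11 for TNFRSF10C, -0.82 for MDM2, -1.12 for PRDM1 and -0.87 for CDKN2B, and on the positive side 1.10 for TNFRSF10D. The stress and survival gene IER3, named after its values were seen, had -2.47.

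NF-kB cytokines and their regulators had differences of -5.58 for CXCL8, -4.41 for IL6, -5.43 for IL1A, -6.61 for IL1B, -3.38 for TNFAIP3, -2.58 for NFKBIA, -4.67 for TNFAIP6, -2.92 for SOD2 and -2.58 for C3. Interferon-stimulated and class I genes had -3.69 for OAS3, -3.67 for IFIT2, -1 for DDX58, -1.01 for GBP1, -0.96 for HLA-B and -0.73 for NLRC5.

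Mitosis genes had -1.61 for CENPA, -2.13 for KIF20A, -1.78 for CDC20, -1.18 for PLK1, -2.06 for BIRC5, -1.04 for TPX2 and -1.27 for AURKB. Genes of chromatin, replication and repair had -1.06 for LMNB1, -0.89 for HMGB2, -0.75 for EZH2, -0.55 for HIST1H2AC, -1.71 for RRM2, -1.29 for TK1, -0.64 for MCM7, -0.66 for MYBL2, -1.02 for FANCD2 and -1.30 for RAD54L, while positive differences were 0.69 for HMGA2 and 1.27 for XRCC4. The difference for CENPA, LMNB1, EZH2, FANCD2 and RAD54L was lost in limma on FPKM.

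Secreted factors and enzymes had -1.65 for WNT16, -2.64 for MMP10, -4.15 for PTGES, -2.94 for TFPI2, -1.02 for SFRP1, -1.50 for NQO1, -1.99 for HMOX1, -1.73 for NPC1, -0.83 for GABARAPL1 and -1.36 for ID1. Immediate early genes not described elsewhere had -2.58 for NR4A2 and -2.50 for EGR3. Positive differences, a smaller fall or a rise with RG7388, were 1.47 for ACTA2, 2.49 for MYH11, 1.98 for ANO1, 1.48 for MAP3K7CL and 1.22 for WNT5B.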

How the results depend on the processing

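The count of 7993 genes called within RG7388 lay between 5918 and 9413 under the alternatives with the same threshold and all replicates of both groups in the fit, was 9576 without IR_DMSO replicate 1 and Prolif_HDM201 replicate 3, and lay between 6786 and 7042 when a replicate of either group was left out. With a 2-fold minimum it was 3052. The 1356 differences between RG7388 and DMSO became 2098 with the libraries of the comparison only, 2204 without IR_DMSO replicate 1 and Prolif_HDM201 replicate 3, 775 at an adjusted p under 0.01 and 709 with a 2-fold minimum, and 991 to 1268 when a replicate was left out. The 0 differences between RG7388 and HDM201 became 23 with no filter on low counts, 27 without the libraries that stood apart, 18 by the DESeq2 Wald test, 3 by limma on log2(FPKM + 1) with no filter, and 0 to 7 when a replicate was left out. The cause of these moves was not tested. Among the named genes, directions turned round for COL1A1 within RG7388 in limma on FPKM, at 2.40 with log2(FPKM + 1) (adjusted p = 0.647, and 0.916 with no filter) and 3.50 with log2(FPKM + 0.1) (adjusted p = 0.597), and for the difference of PTCHD4, at 0.0385 in limma (adjusted p = 0.950 and 1). None of these turned values was called, and empty FPKM values were read as 0 in these fits. In each limma fit 1 gene called within RG7388 was called in the opposite direction. List medians of SASP, WNT, prostaglandin, MHC class I, NRF2, epithelial and endothelial genes changed sign under library totals or limma (WNT -0.49 in limma). With limma on log2(FPKM + 1), 59.2% of calls within RG7388 and 13.4% of differences were higher.

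Labels give every group replicates 1 to 3 without saying what a number marks. None of the 3 pairs of IR_RG7388 and Prolif_RG7388 libraries with the same number deviated together (r of -0.04 to 0.05). Of 45 such pairs over all groups, 9 exceeded an r of 0.1, while 8 of 18 libraries correlated best with their own number. The counts that would arise if numbers meant nothing were not worked out, so these counts do not show a pairing. A replicate block gave 8040 calls within RG7388, 1319 differences from DMSO and 0 from HDM201.

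Depth limits genes under 1 CPM such as IL1A and BCL2, where a library holds few reads. Between RG7388 and HDM201 the agent and its dose changed together and cannot be told apart.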

Other observations

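Values of lists not described above are given beside 21.3% of all genes called higher and 22.8% called lower. Among 24 cholesterol synthesis and uptake genes 8 were higher and 5 lower with RG7388 (median 0.22, and 0.38 under library totals), and with DMSO 11 were higher and 2 lower (median 0.17). Of 18 complement genes 6 were higher and 2 lower with RG7388 (median 0.32), and of 23 glycolysis genes 3 were higher and 5 lower (median 0.04, and 0.20 under library totals), so that the share called in either direction lay near or under the 44.0% of all genes in both lists. C7, a component of the membrane attack complex, had 50.7, 54.3 and 54.8 CPM in IR_RG7388, against 7.30, 9.26 and 8.52 CPM in Prolif_RG7388 (2.67 ± 0.13, adjusted p = 5.21e-14), without overlap, and with DMSO it rose by 2.91.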
